A study of Mus musculus with 6 samples.

Results

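The Ras family of small GTPases was followed through the first 3 days of differentiation of mouse ES cells. Its members here are Eras, Mras, Hras, Nras, Rras and Rras2, 6 genes chosen by name. All probe sets of the array whose annotation gives a member as the only gene symbol were taken, which gave 9 probe sets of 5 genes out of 45037 probe sets tested. Hras has none in the annotation used here, so no value is given for it. All RNA came from E14TG2a, a single mouse ES cell line kept on gelatin in Knockout DMEM with fetal calf serum, as the study's methods give it. Undifferentiated cells had leukaemia inhibitory factor (LIF, 1000 units per ml) and were negative for 5T4, a glycoprotein of the cell surface, when sorted with the antibody 9A7 (3 arrays). Differentiating cells had gone 3 days without LIF and were positive in that sort (3 arrays), so loss of LIF and the 5T4 sort cannot be told apart. Values are RMA values, the authors' background-corrected and normalised array signals on the log2 scale, in which a difference of 1 is a 2-fold change.

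Ras proteins are molecular switches at the inner face of the plasma membrane. They are active when bound to GTP and inactive when bound to GDP. Exchange factors load them with GTP, GTPase-activating proteins switch them off, and active Ras engages effectors such as the RAF kinases, which lead to ERK, and PI3 kinase, which leads to AKT. Eras is the ES cell member of the family. It stays GTP-bound without stimulation and is known for feeding PI3 kinase and for the growth of ES cells. In ES cells, ERK signalling favours exit from self-renewal, whereas LIF and PI3 kinase support it.

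After 3 days, Eras transcript was 3.03-fold lower and Mras was 9.33-fold lower at 1 of its 2 probe sets, while Rras was 2.33-fold higher. Nras and Rras2 passed the test at no probe set. By limma, at a Benjamini-Hochberg adjusted p under 0.1 over all probe sets, 2 of the 9 member probe sets were lower and 1 was higher in differentiating cells, against 1.03% lower and 0.573% higher among all 45037 probe sets. All 3 also reached a log2 fold change of 1, the further threshold of the study's methods. Groups did not overlap on 5 of the 9 member probe sets, against 20.3% of all probe sets. Nothing in the labels or methods says that replicates were separate cultures, so p-values measure only the spread between these arrays, which may be technical. With 3 arrays a group, the smallest two-sided p of an exact permutation test is 0.1.

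**Figure D1:**
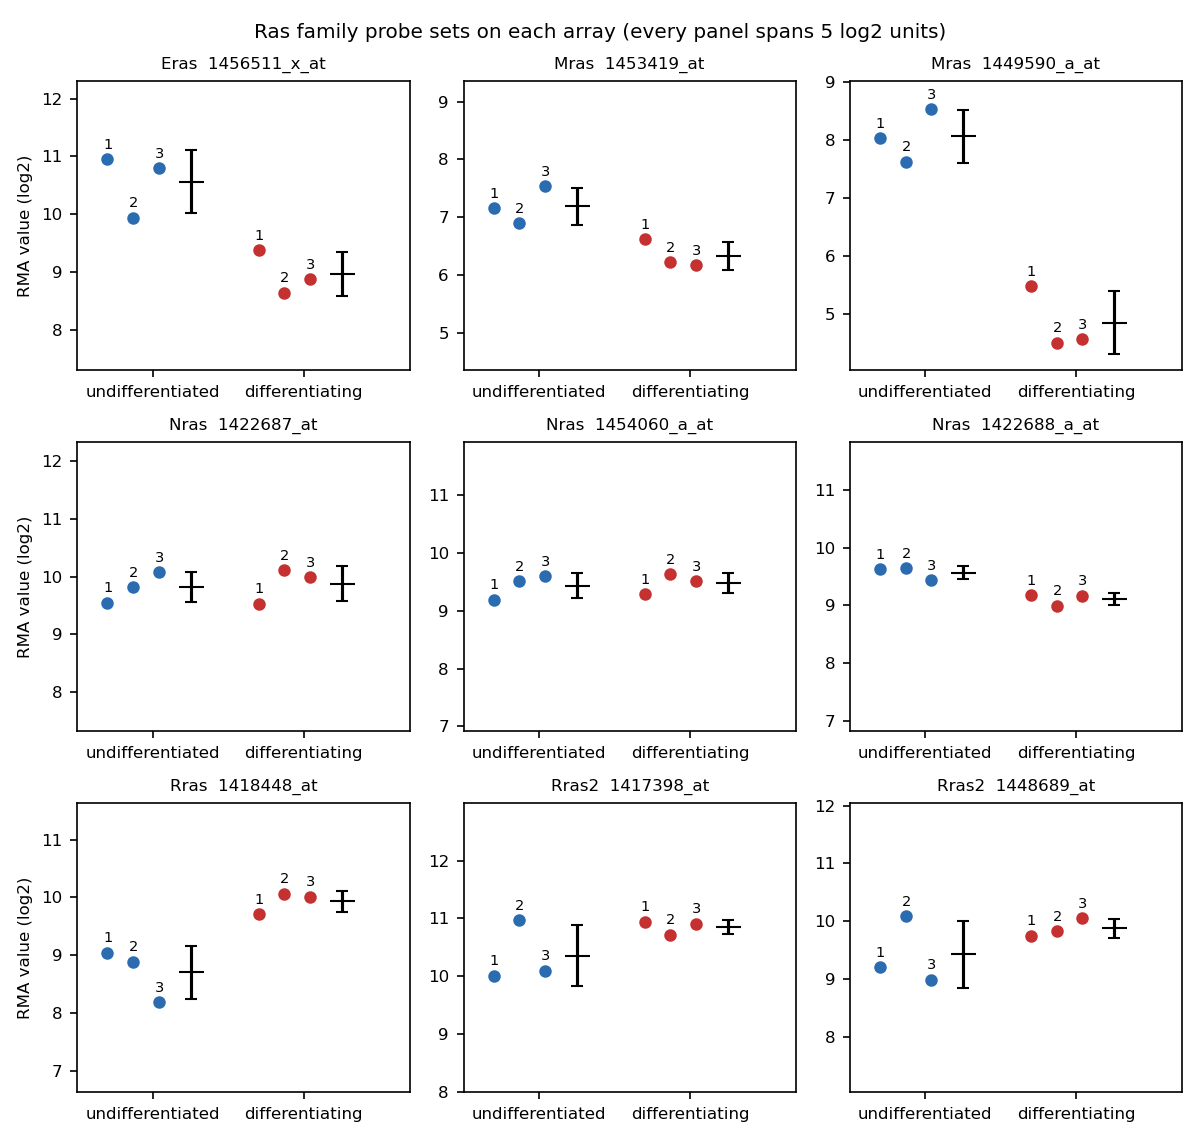
RMA value (log2, vertical axis) of each of the 9 Ras family probe sets on the 6 arrays, undifferentiated in blue and differentiating in red. Small numbers are replicates, and black marks are the mean and SD of 3 arrays. Every panel spans the same range, so heights can be compared as changes but not as levels. Eras and Mras fall, Rras rises, and undifferentiated replicate 2 stands with the differentiating arrays for Rras2.

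The upstream sequences of the 3 genes with a change that passed are shown so that the changes can be set beside the promoters concerned. They are the 250 bases before the transcription start in RefSeq (build GRCm38.p6), 5′ to 3′ on the strand of the gene. Capitals mark GGGCGG (the GC box bound by SP factors) and GGGTGG (letters of the KLF type), searched on both strands, with no overlap between matches of one and of the other here. A match describes the letters and is not a binding site.
Eras, chrX:7928608-7928857, minus strand: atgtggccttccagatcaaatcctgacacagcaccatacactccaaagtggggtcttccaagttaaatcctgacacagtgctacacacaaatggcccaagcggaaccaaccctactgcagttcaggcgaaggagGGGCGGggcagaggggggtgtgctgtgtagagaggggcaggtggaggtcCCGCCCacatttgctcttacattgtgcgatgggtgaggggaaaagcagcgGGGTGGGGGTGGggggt
Mras, chr9:99436713-99436962, minus strand: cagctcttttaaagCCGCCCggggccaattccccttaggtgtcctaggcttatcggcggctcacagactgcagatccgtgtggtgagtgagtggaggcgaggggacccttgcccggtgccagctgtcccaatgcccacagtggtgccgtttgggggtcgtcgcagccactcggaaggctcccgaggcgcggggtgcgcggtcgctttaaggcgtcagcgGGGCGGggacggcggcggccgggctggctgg
Rras, chr7:45017692-45017941, plus strand: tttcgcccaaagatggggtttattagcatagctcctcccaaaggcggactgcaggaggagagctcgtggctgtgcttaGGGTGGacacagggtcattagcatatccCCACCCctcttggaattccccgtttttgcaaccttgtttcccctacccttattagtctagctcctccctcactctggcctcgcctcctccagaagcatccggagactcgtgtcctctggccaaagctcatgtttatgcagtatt

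The Eras window held GGGCGG at -116 and -67 and GGGTGG at -17 and -11, counted from the start site to the first base of the match. The Mras window held GGGCGG at -236 and -31 and no GGGTGG. The Rras window, the first of 3 listed for this gene, held GGGTGG at -172 and -144 and no GGGCGG. Over all 32851 windows of this length, 32.7% held GGGCGG and 28.1% held GGGTGG, so both are common. TTCNNNGAA, the letters of a STAT site, TATAAA and the octamer ATGCAAAT were in none of the 3 windows printed and in 7.02%, 12.4% and 1.60% of all windows. Of the 2 Rras windows not printed, which lie further downstream, chr7:45019347-45019596 held TTCNNNGAA at -85, and chr7:45019220-45019469 held GGGTGG at -129. The Mras window was rich in CpG, with 24, more than in 88.0% of windows. Eras had 6 and the printed Rras window 7, against a median of 6, and the other Rras windows had 1 and 3.

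Eras was measured by 1 probe set, 1456511_x_at. In undifferentiated cells it read 10.95, 9.94 and 10.79 in replicates 1, 2 and 3. In differentiating cells it read 9.38, 8.64 and 8.87. The groups did not overlap, and the closest arrays were undifferentiated replicate 2, the lowest of its group, and differentiating replicate 1, the highest of its group. The means were 10.56 ± 0.54 and 8.96 ± 0.37 (SD, n = 3 each), a log2 fold change of -1.60 with a standard error of 0.31 and a 95% interval from -2.32 to -0.87 (limma, adjusted p = 0.0949). This change was within the lowest 0.524% of all probe sets. The suffix x_at marks probes that can also bind other sequences, and Eras has no second probe set here to set beside it. The call was lost without differentiating replicate 2 (adjusted p = 0.372), differentiating replicate 3 (0.326), undifferentiated replicate 3 (0.346) or undifferentiated replicate 1 (0.122), with log2 fold changes of -1.40 to -1.55 in these fits.

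Mras encodes M-Ras, which with SHOC2 and a PP1 phosphatase forms a complex that activates RAF kinases. It had the largest change of the family. At probe set 1449590_a_at the undifferentiated arrays read 8.04, 7.62 and 8.54 and the differentiating arrays 5.48, 4.50 and 4.56. More than 2 units separated the lowest undifferentiated from the highest differentiating array, and differentiating replicate 1 was again the highest of its group. The log2 fold change was -3.22 (standard error 0.33, 95% interval -4.00 to -2.44, limma adjusted p = 0.0377), with means of 8.07 ± 0.46 and 4.84 ± 0.55 (SD, n = 3 each). It was within the lowest 0.0622% of all probe sets. The differentiating values lie below the median of their arrays (5.56 to 5.65), and with no detection calls the 9.33-fold decrease can understate the change.

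The second Mras probe set, 1453419_at, changed less. It read 7.15, 6.89 and 7.53 in undifferentiated and 6.61, 6.22 and 6.16 in differentiating cells. These groups did not overlap either, but the log2 fold change of -0.86 (95% interval -1.34 to -0.38) did not pass (adjusted p = 0.138). It passed in limma without undifferentiated replicate 2 (adjusted p = 0.087) and with array weights (0.0116). Those fits called 738 and 3595 probe sets lower over all, against 462 with all arrays and no weights. It also passed with both undifferentiated replicate 2 and differentiating replicate 1 left out (0.0696). That setting was chosen after seeing the data and drops the arrays nearest the other group, so this pass is no support. The responses of the Mras probe sets differed by -2.36 on the log2 scale. Taken as the difference between the probe sets on each array, it was -1.72 to -1.14 in differentiating and 0.73 to 1.01 in undifferentiated cells. This gave the smallest exact permutation p that 3 against 3 arrays allow (p = 0.1, two-sided, 1 pair compared). The pair was compared because 1 probe set passed on these same arrays and the other did not, so this p is no independent support. As the average of both probe sets, Mras fell by 2.04 on the log2 scale (adjusted p = 0.0499). The call at 1449590_a_at was lost without differentiating replicate 2 (adjusted p = 0.245), differentiating replicate 3 (0.196) or undifferentiated replicate 3 (0.166), with log2 fold changes of -2.99 to -3.08. In those same fits 0, 3 and 1 of all 45037 probe sets were lower and 0 were higher (unadjusted p under 0.05 for 4129, 4668 and 4245), so that few or no calls were left anywhere on the array.

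**Figure D2:**
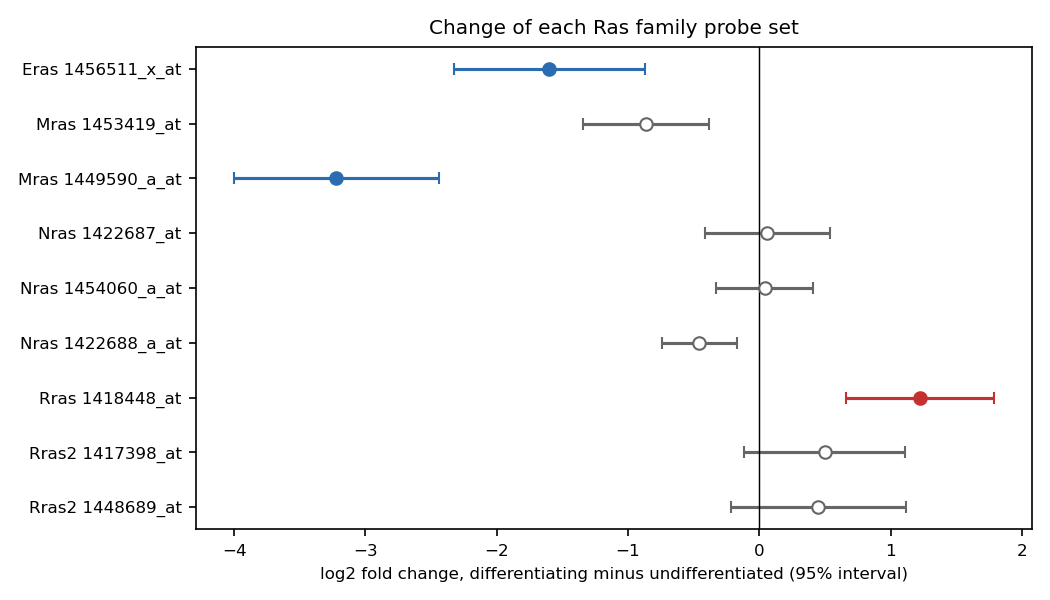
Each Ras family probe set with its log2 fold change on the horizontal axis (below 0, lower in differentiating cells) and the 95% interval from limma, 3 arrays a group. Filled points have an adjusted p under 0.1 (blue lower, red higher). The interval of Mras 1449590_a_at (-4.00 to -2.44) lies wholly below that of Mras 1453419_at (-1.34 to -0.38).

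Rras encodes R-Ras, which is known for activating integrins and for cell adhesion and spreading. At its 1 probe set, 1418448_at, undifferentiated cells read 9.04, 8.89 and 8.19 and differentiating cells 9.71, 10.06 and 10.01. Every differentiating array was above every undifferentiated one, with undifferentiated replicate 3 the lowest of all. The means were 8.71 ± 0.46 and 9.93 ± 0.19 (SD, n = 3 each), a log2 fold change of 1.22 (standard error 0.24, 95% interval 0.66 to 1.79, limma adjusted p = 0.0953). This call is close to the threshold. It was lost without differentiating replicate 1 (adjusted p = 0.118), differentiating replicate 2 (0.377), differentiating replicate 3 (0.328) or undifferentiated replicate 3 (0.229), and after centring each array on its median (0.106), with log2 fold changes from 0.96 to 1.33.

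Rras2, which encodes TC21, the close relative of R-Ras, was measured at 2 probe sets and passed at neither. At 1417398_at it read 10.00, 10.97 and 10.09 in undifferentiated and 10.94, 10.71 and 10.91 in differentiating cells. At 1448689_at it read 9.20, 10.08 and 8.99 and then 9.75, 9.82 and 10.05. On both probe sets undifferentiated replicate 2 was the highest of all 6 arrays, while the other undifferentiated arrays lay below every differentiating array. With all arrays the log2 fold changes were 0.50 (95% interval -0.12 to 1.11, limma adjusted p = 0.471) and 0.45 (-0.22 to 1.12, adjusted p = 0.553). Without undifferentiated replicate 2 they were 0.81 (adjusted p = 0.0639) and 0.78 (adjusted p = 0.092), and both probe sets passed. Calls rose over the whole array in that fit, to 738 probe sets lower and 753 higher, against 462 and 258 with all arrays. No other single array turned Rras2 into a call.

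Nras encodes one of the classical Ras proteins, which signal to RAF in most cells. At 1422687_at it read 9.55, 9.82 and 10.08 in undifferentiated and 9.53, 10.11 and 9.99 in differentiating cells. At 1454060_a_at the values were 9.19, 9.51 and 9.60, and 9.28, 9.63 and 9.51. The groups overlapped on both, with log2 fold changes of 0.06 (95% interval -0.42 to 0.54, limma adjusted p = 0.925) and 0.04 (-0.33 to 0.41, adjusted p = 0.939), so a change of more than about 0.54 in either direction lies outside both intervals. The third probe set, 1422688_a_at, read 9.62, 9.65 and 9.44 in undifferentiated and 9.18, 8.99 and 9.17 in differentiating cells, with no overlap between groups and the smallest standard error of the family (0.12). Its log2 fold change of -0.46 (95% interval -0.74 to -0.17) did not pass (adjusted p = 0.169). Among the alternatives it passed only in limma with array weights (-0.51, adjusted p = 0.0235). That fit called 3595 probe sets lower over all, against 462 without weights.

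The same arrays lay closest to the other group for several members. Differentiating replicate 1 was nearest to the undifferentiated group for Eras, for both Mras probe sets and for Rras, and undifferentiated replicate 2 was nearest to the differentiating group for Eras and both Mras probe sets. Tpbg, the gene of the sorted protein 5T4, was measured at 3 probe sets and passed at none (adjusted p = 0.22, 0.118 and 0.237). At 1423310_at it read 6.71 in differentiating replicate 1 against 7.52 and 7.97 in the other differentiating arrays, and 6.76 in undifferentiated replicate 2 against 5.94 and 5.68. At 1423311_s_at differentiating replicate 1 was likewise the lowest of its group (6.94) and undifferentiated replicate 2 the highest of its own (6.54 against 5.60 and 5.50), whereas at 1423312_at the undifferentiated arrays lay close together (3.53 to 3.58). The part of this difference between arrays in the Ras values was not tested. With both differentiating replicate 1 and undifferentiated replicate 2 left out, a setting chosen after seeing the data, the log2 fold change was -2.11 for Eras (limma adjusted p = 0.0297), -3.76 and -1.15 for the Mras probe sets (0.0297 and 0.0696) and 1.42 for Rras (0.13), with 2 arrays a group. Leaving out the arrays nearest the other group makes the Eras and Mras changes larger by construction, so these adjusted p-values are no support for them.

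**Figure D3:**
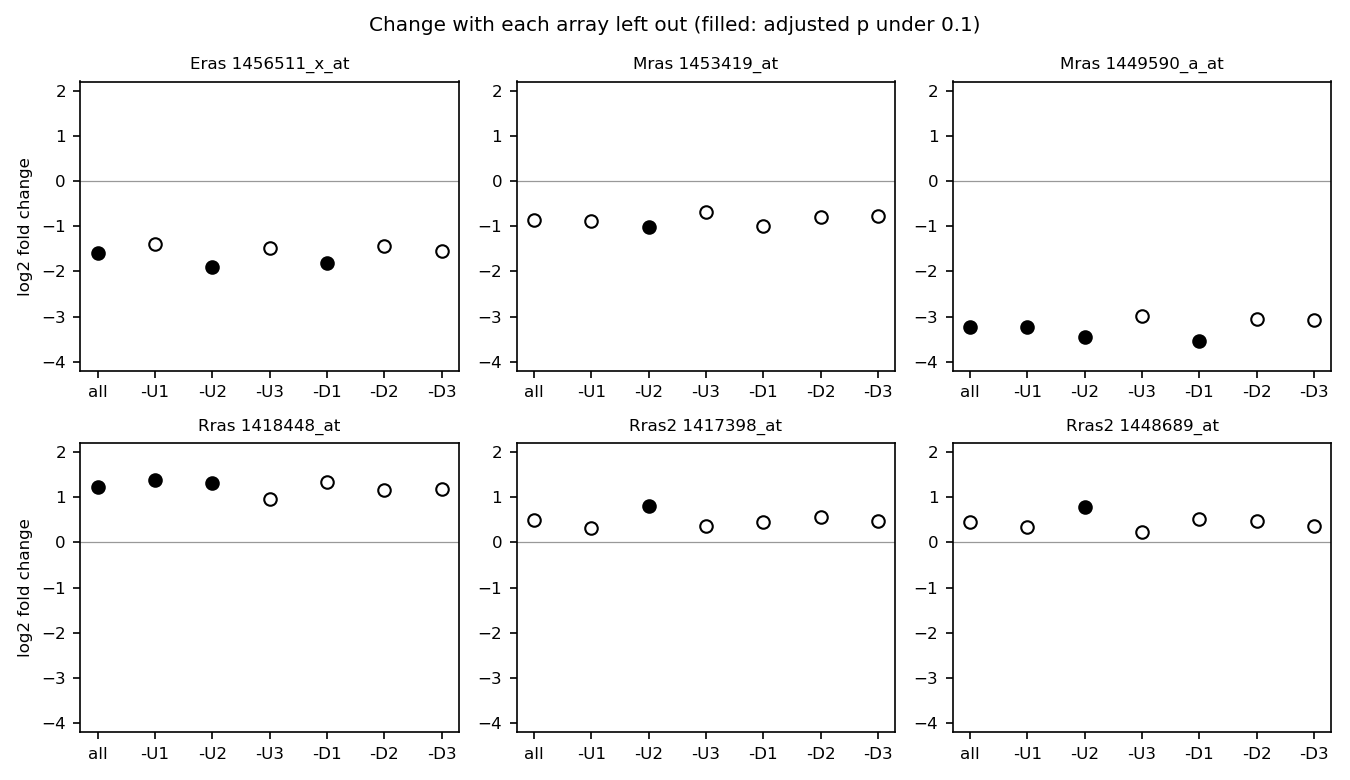
Log2 fold change (vertical axis) of the 6 probe sets of Eras, Mras, Rras and Rras2 with all arrays and with each array left out (U undifferentiated, D differentiating, numbers are replicates). Nras is not drawn. Filled points have an adjusted p under 0.1 in limma. All points of a drawn probe set stay on the same side of 0, and leaving out undifferentiated replicate 2 brings both Rras2 probe sets past the threshold. Nras did change sign, at 1422687_at from 0.234 without differentiating replicate 1 to -0.0529 without differentiating replicate 2, and likewise at 1454060_a_at (0.136 and -0.0373).

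The sorted cells carried ES cell transcripts in both groups. The mean RMA value over 10 ES cell markers was 11.69 to 11.97 in undifferentiated and 10.80 to 11.15 in differentiating arrays. Pou5f1 (log2 fold change -0.68) and Sox2 (-0.96) were lower and 8 did not pass, though 9 of the 10 had a negative log2 fold change. Zfp42 (-2.64, limma adjusted p = 0.106) and Dnmt3l (-2.29, adjusted p = 0.108) just missed the threshold, with larger decreases and no overlap between groups. Of 8 fibroblast markers none passed, and their mean value was 5.11 to 5.60 in undifferentiated and 5.43 to 5.93 in differentiating arrays. Only 1 of the 8 had a negative log2 fold change. Col1a2 had the largest value (1.38, limma adjusted p = 0.516). It read 5.55, 8.44 and 6.51 in undifferentiated and 9.34, 7.41 and 7.89 in differentiating cells, and the groups overlapped. The part of fibroblast-like cells in the higher Rras value was not tested. Of 7 measured blood and endothelial markers none passed (5.04 to 5.14 and 4.50 to 5.34), and 3 had a negative log2 fold change. Pecam1 had the largest value (-1.93, limma adjusted p = 0.336) and lay above the list mean in most arrays. It read 8.67, 7.56 and 8.54 in undifferentiated and 8.04, 6.14 and 4.80 in differentiating cells. In these bulk samples fewer expressing cells and less RNA per cell cannot be told apart.

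Genes around Ras passed the test at about the share of all genes. In 7 lists of exchange factors, GTPase-activating proteins, RAF-MEK-ERK genes, PI3K-AKT genes, other effectors, lipid-modifying enzymes and other small GTPases, 102 genes were measured, each taken at its probe set of highest mean. Of these, 1 was lower and 1 was higher, against 1.45% lower and 0.797% higher among all 18193 genes. Taken the same way, 1 of the 5 measured Ras genes was lower (Eras) and 1 higher (Rras). Mras is taken here at 1453419_at and not at its dimmer probe set 1449590_a_at, the one that passed.

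Among 8 exchange factors only Rasgrp2 passed. It encodes a calcium-responsive exchange factor that acts mainly on Rap1. At its brightest probe set, 1438933_x_at, it read 9.16, 8.60 and 8.82 in undifferentiated and 8.03, 7.81 and 7.81 in differentiating cells, 1.97-fold lower (log2 fold change -0.98, limma adjusted p = 0.0806). At 1417804_at Rasgrp2 was 3.33-fold lower (log2 fold change -1.73, adjusted p = 0.0718), while 1438932_at, at -0.53 (adjusted p = 0.215), and 1442264_at, at -0.42 (adjusted p = 0.296), missed the threshold. The median log2 fold change of the list was 0.11, against 0.02 over all genes. Of 9 measured GTPase-activating protein genes none passed. Rasa4 had the largest value, -1.42 (95% interval -2.76 to -0.09, adjusted p = 0.336), with undifferentiated replicate 1 at 7.32 and the others at 5.31 and 5.61.

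None of 14 measured genes of the RAF-MEK-ERK cascade passed. The largest value was that of Grb2, the adaptor that brings SOS to receptors, with a log2 fold change of -0.51 (95% interval -0.78 to -0.25, limma adjusted p = 0.121). Shoc2, the scaffold partner of M-Ras, had one of 0.37 (95% interval 0.01 to 0.73, adjusted p = 0.356) and was singled out after its value was seen. The median of this list was 0.08. Of 20 PI3K-AKT genes none passed at the brightest probe set, with a median of -0.03. Inpp5d, the gene of the lipid phosphatase SHIP1, had the largest value (-1.65, 95% interval -2.97 to -0.33, adjusted p = 0.26). Its differentiating arrays were spread from 6.16 to 8.37 and overlapped the undifferentiated ones. At a dimmer probe set, Akt2 was 1.63-fold lower (1421324_a_at, 6.50 to 6.73 against 7.19 to 7.37, adjusted p = 0.0806) and Pdpk1, the kinase that activates AKT, was 1.85-fold lower (1416501_at, 6.82 to 6.96 against 7.46 to 7.99, adjusted p = 0.0887). At the brightest probe set, Akt2 stood at -0.40 (adjusted p = 0.185) and Pdpk1 at -0.46 (adjusted p = 0.205), and neither passed. The remaining Akt2 probe set, 1455703_at, overlapped between groups (-0.15, adjusted p = 0.628).

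**Figure D4:**
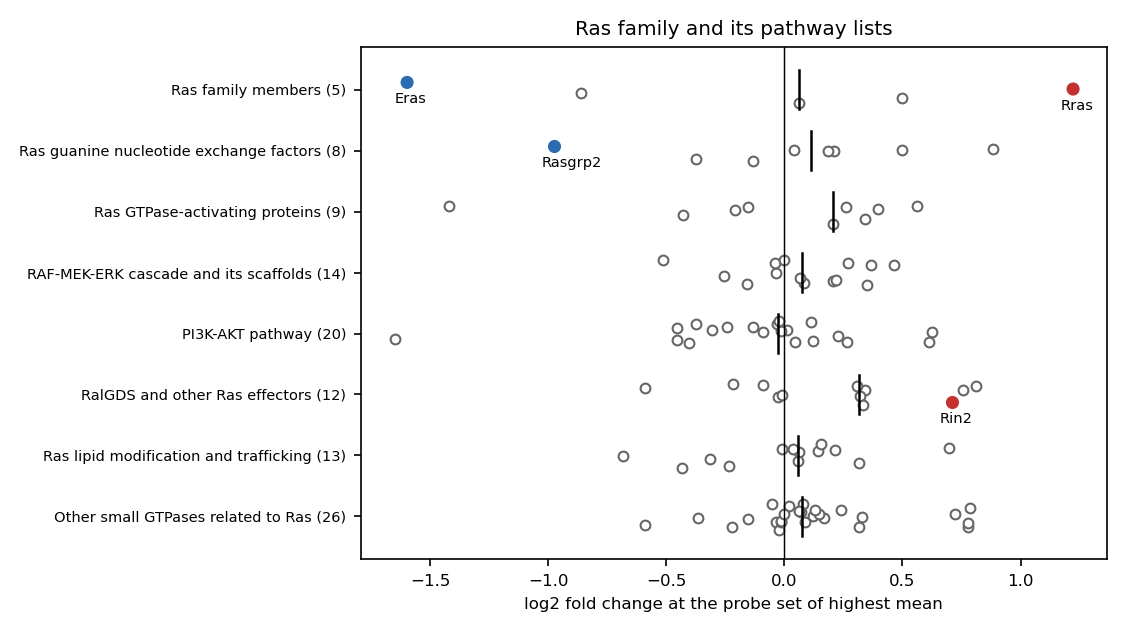
Log2 fold change (horizontal axis) of the 5 measured Ras genes and of 7 lists of related genes, 1 point per gene at its probe set of highest mean, with the number of genes in brackets. Filled, named points have an adjusted p under 0.1, black bars are medians, and the vertical offset only separates points. Eras and Rras stand at the ends of the family row, and the medians of the lists run from -0.03 to 0.32. Mras is drawn at 1453419_at (-0.86), so its larger change at 1449590_a_at (-3.22) is not in the figure.

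Rin2, which encodes a RAB5 exchange factor with a Ras association domain, was the only 1 of 12 measured genes of other effectors to pass. It read 6.03, 6.02 and 5.96 in undifferentiated and 6.53, 6.84 and 6.78 in differentiating cells, 1.64-fold higher (log2 fold change 0.71, limma adjusted p = 0.0823). The median of that list was 0.32, with 5 of 12 genes below 0. Of 13 genes of Ras lipid modification and trafficking none passed, and the largest value was that of Zdhhc9, a palmitoyltransferase gene (0.69, adjusted p = 0.213). Of 26 other small GTPase genes none passed at the brightest probe set. Rasd2 had the largest value (0.79, adjusted p = 0.146), and Rem2, of the family that inhibits calcium channels, was 1.64-fold higher at a dimmer probe set only (adjusted p = 0.0975).

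The genes whose profile over the 6 arrays was most like that of a Ras probe set were found by the root mean square difference of the 2 profiles, each centred on its mean. Since the arrays of both groups enter, likeness includes the group difference and the value of every array. A dip or rise shared on 1 array is thus part of how these genes were chosen. Likeness is given as a description. Nearest to Eras were Rasgrp2 at 1417804_at (0.12 log2 units), Myo1g (0.13), an unconventional myosin gene, Epha4 (0.15), an ephrin receptor gene, and Smarcd3 (0.15), a BAF chromatin remodeller subunit gene. Rasgrp2, nearest of all, read 7.75, 6.86 and 7.59 in undifferentiated and 6.09, 5.49 and 5.41 in differentiating cells, with the same dip in undifferentiated replicate 2 as Eras. Nearest to Mras at 1449590_a_at were Cnpy1 (0.15), Myo1f (0.17), Tbx3 (0.21), a transcription factor gene of the naive ES cell network, and Gna14 (0.28), a G protein alpha subunit gene. Nearest to Rras were Acadl (0.12), a fatty acid oxidation enzyme gene, Pde1b (0.14), a phosphodiesterase gene, H2-D1 (0.14), a class I MHC gene, and Patj (0.15), a cell polarity gene. Within the family, Eras was 0.44 from Mras at 1453419_at and 0.85 from it at 1449590_a_at, and the Rras2 probe sets were 0.14 apart.

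**Figure D5:**
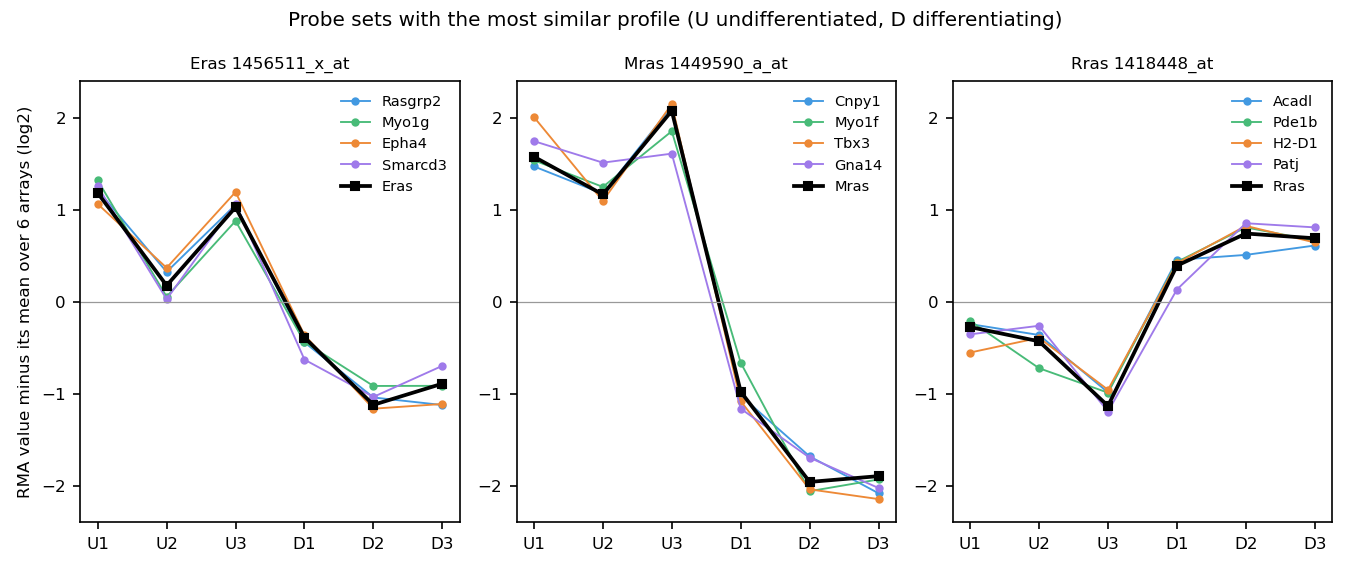
RMA value minus its mean over the 6 arrays (log2, vertical axis) on each array (horizontal axis, U undifferentiated, D differentiating, numbers are replicates) for Eras, Mras and Rras in black and for the 4 genes nearest to each in colour. The lines join arrays only to make profiles visible. Eras and its neighbours share the lower value in undifferentiated replicate 2, which was among the values used to choose them.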

How the data were processed

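The authors ran RMA in the affy library on the Affymetrix arrays (version not given in the sources used here). Their deposited table holds log2 values for 6 arrays and was used unchanged. The array median was 5.54 to 5.65 and the lower quartile 4.07 to 4.26, the latter in differentiating replicate 1. The table names no genome build, holds no detection calls and has no measure of depth, and the number of arrays limits the precision. Of 45101 probe sets, 64 controls were left out. Of the rest, 34945 carry 1 symbol in the platform annotation, 932 several and 9160 none. A linear model was fitted to all of them (limma 3.58.1 under R 4.3.3, eBayes with 2.93 prior degrees of freedom), with p-values adjusted over the whole table (Benjamini-Hochberg) and a threshold of 0.1, as in the study's methods, and no block. The steps were tested on simulated data. The members and lists were chosen with earlier results of these data known. Named genes are the members, the list genes that passed (up to 4 a list, otherwise the largest change) and the 4 nearest profiles. Genes named outside this rule are Shoc2, Akt2, Pdpk1, Rem2, Zfp42, Dnmt3l and Tpbg, the gene of the sorted protein. Alternatives were a replicate block, each array left out, the dimmer probe sets left out, controls kept, array weights, a robust trended variance, centring on the median, quantile normalization once more, other thresholds and the mean of a gene's probe sets.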

Additional observations from a re-analysis of the deposited data

How the results depend on the processing

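Of the 9 Ras family probe sets, 2 were lower and 1 higher by limma. The number lower ranged from 0 to 3, and the number higher from 0 to 3, when 1 array was left out. The number lower was 1 after a second quantile normalization or at an adjusted p under 0.05, and 4 with array weights. The number higher was 0 at an adjusted p under 0.05, after median centring or with the replicate block. The values did not show that label numbers pair the arrays. Correlations of same-numbered deviations were 0.21, -0.11 and 0.11, against -0.31 to 0.32 for unlike numbers. With so few arrays they cannot settle whether samples were paired. The block (388 probe sets lower and 265 higher over all) ended only the Rras call among the members (1.22, limma adjusted p = 0.131). Eras also missed after the second quantile normalization (adjusted p = 0.118). Array weights called 3595 probe sets lower and 3579 higher over all, against 462 and 258, and the cause was not tested. With 1 array, or both differentiating replicate 1 and undifferentiated replicate 2, left out, Nras moved between -0.0698 and 0.236 at 1422687_at and between -0.081 and 0.175 at 1454060_a_at, so its sign is not settled there. It was -0.0021 at 1454060_a_at after median centring and -0.12 as the mean of its probe sets. Eras, Mras, Rras and Rras2 kept their direction in all alternatives run. Much of this was fixed in advance. The replicate block, dimmer probe sets left out, controls kept and robust trended variance leave the fold change itself unaltered. For Eras, Mras and Rras, whose groups do not overlap, leaving out an array cannot reverse the sign. Values near background and 3 arrays a group limit what can be seen.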
